A study of Arabidopsis thaliana with 12 samples.

Results

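The loci described here are assembled regions of the Arabidopsis thaliana genome that carried small RNA reads. They are the rows of the deposited small RNA table named xat whose raw counts, summed over all 6 small RNA libraries, reached at least 60. One further row, XLOC_002355, is left out by the rule. The rule took 750 of the 3206 rows, and the RNA-seq tables list 9585 assembled loci in all. Identifiers that start with XLOC name these loci. Their positions, lengths, strands and neighbouring genes were not part of the data analysed. A count therefore says how much small RNA or RNA a locus held and not how dense it was along the locus, and no sequence of a locus can be shown.

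The study set the mutant xrn3-8 against wild-type Col-0, and its title asks how XRN3 in transcription termination bears on protein-coding genes. Small RNA was sequenced from 14-day seedlings grown on MS plates, in 3 libraries of xrn3-8 and 3 of Col-0. RNA-seq used 21-day seedlings grown on soil, again in 3 libraries of xrn3-8 and 3 of Col-0, as stranded total RNA after removal of ribosomal RNA. The 2 assays thus differ in age and medium, and nothing links single libraries across them. The design text calls the replicates biological; the labels do not state how many plants entered a library.

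XRN3 is a nuclear enzyme that degrades RNA from its 5′ end. When a transcript is cleaved at its 3′ end, such an enzyme can degrade the RNA still attached to the polymerase, which helps transcription to stop. Plant small RNAs are cut from double-stranded or folded precursors by DICER-LIKE enzymes and loaded into ARGONAUTE proteins. RNA-dependent RNA polymerases can turn an aberrant single-stranded transcript into such a double-stranded precursor. The loci below are places where RNA-seq counts of xrn3-8 and small RNA counts can be set side by side.

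Per library, annotated genes received 5873199 to 7122245 small RNA counts and 61604670 to 79845518 RNA-seq counts. XRN3 RNA (AT1G75660) averaged 20.5 ± 1.33 CPM in xrn3-8 and 48.8 ± 0.21 CPM in Col-0 (SD, n = 3 each; CPM are counts per 1e+06 counts over genes, after scaling). Small RNA over the gene XRN3 amounted to 538823, 573638 and 706264 counts in xrn3-8, against 276, 790 and 350 in Col-0. The row left out by the rule had nearly these counts, with 538759, 573576 and 706184 in xrn3-8 and 267, 784 and 339 in Col-0. Of the markers looked up in RNA-seq, the leaf genes were abundant in both genotypes and lower in xrn3-8: RBCS1A, for the small subunit of Rubisco, averaged 3308 CPM in xrn3-8 and 4327 CPM in Col-0 (adjusted p = 0.027), CAB3 905 and 1273 CPM (adjusted p = 0.026) and LHCB2.1 491 and 1088 CPM (adjusted p = 2.7e-05). The root gene PYK10 averaged 78.3 CPM in xrn3-8 and 113 CPM in Col-0. The flower gene PI was low and higher in xrn3-8, with 130, 91 and 211 counts in xrn3-8 against 11, 7 and 12 in Col-0 (log2 fold change 3.60, SE 0.41, adjusted p = 9.9e-05), while the flower genes AG and AP3 averaged 0.039 and 0.071 CPM in xrn3-8, and 0.20 and 0.23 CPM in Col-0. The seed gene CRA1 had 0, 1 and 0 counts in xrn3-8 and 4, 0 and 72 in Col-0, where 1 library held nearly all, and SESA1 had 1, 0 and 1 in xrn3-8 and 0, 4 and 26 in Col-0. The part of these differences in the results below was not tested.

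Most loci did not pass the test for a difference in small RNA between the genotypes. Of the 750 loci, 740 passed the filter on low counts and were tested. In xrn3-8, small RNA was higher at 164 of them and lower at 51, and 525 did not pass (edgeR, adjusted p under 0.05). DESeq2 called 131 higher and 31 lower. Over the whole xat table, 25.3% of 788 tested loci were called higher and 6.47% lower, so the shares of 22.2% and 6.89% among the 750 loci are close to that background. Nearly all loci tested in the table are among the 750, and 35 of the other 48 were called higher. Over annotated genes, 6.21% of 9048 tested were called higher and 1.01% lower. These shares were not tested against each other, and in seedlings a change in the number of cells that make a small RNA and a change per cell cannot be told apart.

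The median small RNA log2 fold change of the 740 loci was 0.045, with quartiles at -0.20 and 0.58, beside -0.0017 over all genes tested. Of the 525 loci that did not pass, 419 had a log2 fold change whose range of plus and minus 2 standard errors stayed within 1 on either side of 0. For these a 2-fold change lay outside that range, while for the others the counts did not narrow it that far. The genotypes did not overlap at 209 loci with higher and 76 with lower small RNA in xrn3-8, of the 750. Over all 788 tested loci of the table, 30.7% stood apart as higher and 9.64% as lower.

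**Figure D1:**
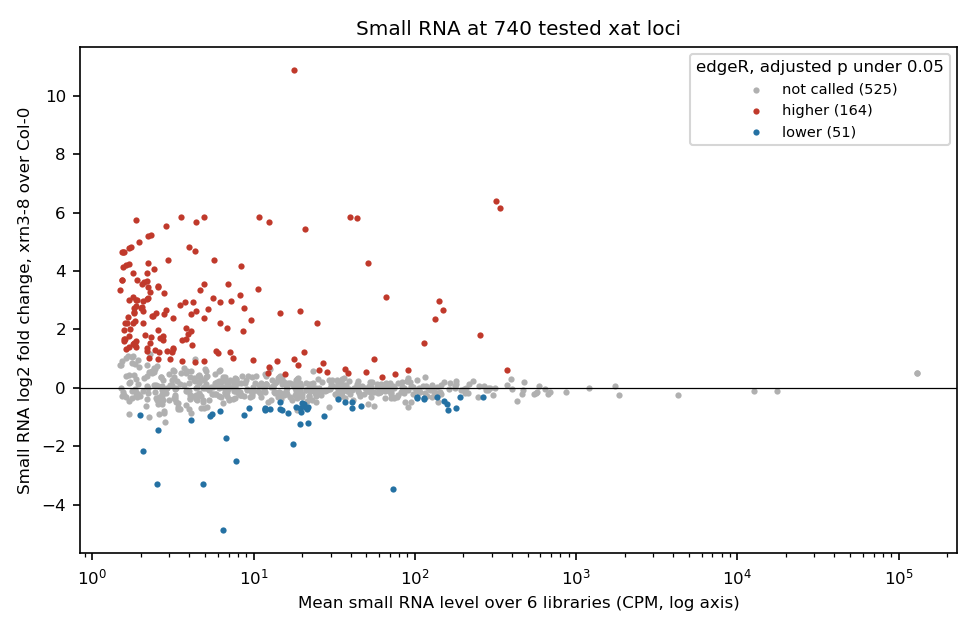
Each point is 1 of the 740 tested loci, with its mean small RNA level in CPM over 6 libraries on a log axis and its small RNA log2 fold change, xrn3-8 over Col-0, on the vertical axis. The 525 grey loci lie around 0 at every level, while most of the 164 red loci (higher) have low levels and the 51 blue loci (lower) reach further down than -1 in 12 cases; the highest point had 0 Col-0 counts, so its height is set by the prior count of the fit.

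The size of the changes was unequal in the 2 directions. Of the 164 higher loci, 141 had a log2 fold change of at least 1, 100 of at least 2 and 57 of at least 3, with a median of 2.53. Of the 51 lower loci, 12 reached -1, 6 reached -2 and 4 reached -3, with a median of -0.72. A locus with few counts in 1 genotype reaches the total of 60 only through the other. Large changes at low totals are thus favoured by the rule itself, through whichever genotype holds the counts. By total count, the 175 loci with 60 to 119 counts had 82 higher and 4 lower loci among 166 tested. The 342 loci with 120 to 999 counts had 60 higher and 29 lower among 341 tested. The 198 loci with 1000 to 9999 counts had 18 higher and 17 lower, and the 35 loci with 10000 or more counts had 4 higher and 1 lower. Higher calls were thus most frequent in the lowest class, where lower calls were few. The xat loci under 60 counts had a median small RNA level of 0.161 CPM in xrn3-8 and 0.0547 CPM in Col-0. The cause of the excess of higher calls in the lowest class was not tested. From 1000 to 9999 counts both directions were about equally frequent.

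**Figure D2:**
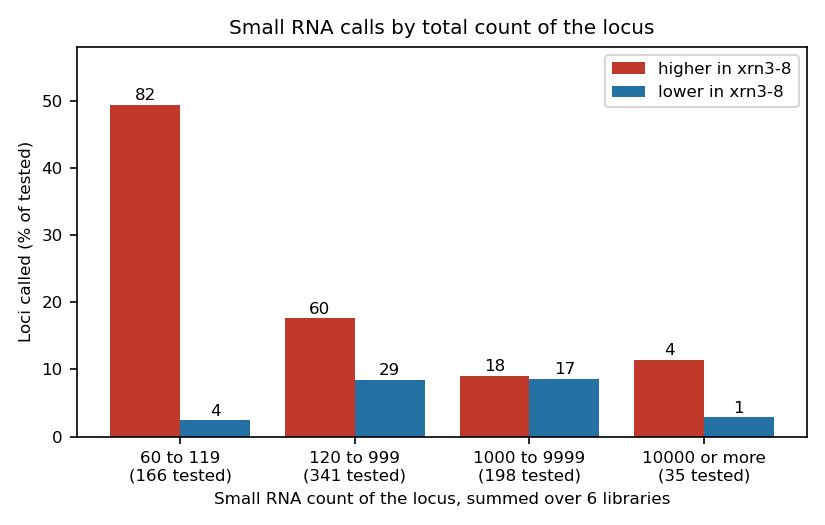
Bars give the percentage of tested loci called higher (red) or lower (blue) in xrn3-8, by the small RNA count of the locus summed over 6 libraries; numbers above the bars are loci. Loci with 60 to 119 counts were called higher in 49.4% of cases, and loci with 1000 to 9999 counts in 9.09%.

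The threshold itself cut through a continuous range. The 4 loci with the lowest totals inside it, XLOC_004241, XLOC_004832, XLOC_006760 and XLOC_007549, each had 60 counts. Just outside were XLOC_001324 with 59 counts and XLOC_001459, XLOC_003159 and XLOC_004362 with 58 counts each. The median total was 384 counts and the highest 5158856. Of the rows of the table, 292 had no small RNA read in any library.

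A few loci held most of the small RNA. XLOC_007173 and XLOC_003567 together held 78.8% of all counts of the 750 loci, and the 5 loci with the most counts held 89.2%. XLOC_007173 had 932289, 666789 and 1451761 small RNA counts in xrn3-8, against 636819, 710931 and 760267 in Col-0. XLOC_003567 had 932218, 666651 and 1451558 counts in xrn3-8, against 636686, 710822 and 760123 in Col-0. The counts of this pair differ by at most 0.0209% in any library, so the pair may hold the same reads and its test results are read here as 1 observation. For both, the fitted log2 fold change was 0.49 with an SE of 0.35 (adjusted p = 0.36). Without the filter on low counts both were called higher at the same fold change (adjusted p = 0.0057), and under the other alternatives the adjusted p ran from 0.080 to 0.67. Leaving out 1 library gave log2 fold changes of 0.25 to 0.70, and after scaling xrn3-8 replicates 1 and 3 lay above all Col-0 libraries while xrn3-8 replicate 2 lay among them.

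The next loci by small RNA level did not pass the test. XLOC_003222 had 94330, 85331 and 159545 counts in xrn3-8, against 119448, 115914 and 119151 in Col-0 (log2 fold change -0.10, SE 0.23). XLOC_009111 had 71640, 74462 and 97947 counts in xrn3-8, against 89784, 77340 and 89772 in Col-0 (-0.095, SE 0.18). XLOC_007362 had 25457, 26081 and 24918 counts in xrn3-8, against 29236, 29928 and 31775 in Col-0 (-0.26, SE 0.16). Their adjusted p were 0.80, 0.75 and 0.30. XLOC_003454, XLOC_003076, XLOC_006598, XLOC_003488 and XLOC_004084 completed the 10 loci of highest level, among which the near-identical pair takes 2 places, with log2 fold changes between -0.25 and 0.046 and none past the test. XLOC_003454 (-0.25, SE 0.13, adjusted p = 0.20) had genotypes that stood apart, with 1584, 1749 and 1719 CPM in xrn3-8 against 1799, 1920 and 2306 CPM in Col-0. Near-identical counts were found for 2 other pairs among the 313 loci with at least 600 counts, taking all 6 counts within 5% of each other. These were XLOC_003286 with XLOC_003489, and XLOC_003887 with XLOC_006094, and none of the 4 changed in small RNA.

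Summed over the 750 loci, there were 36.4 ± 11.4 small RNA counts per 100 counts over genes in xrn3-8 and 29.4 ± 0.76 in Col-0 (SD, n = 3 each). The per-library values were 31.9, 28.0 and 49.4 in xrn3-8, against 29.98, 28.6 and 29.7 in Col-0, and the groups overlap. The highest value is that of xrn3-8 replicate 3. These sums count both loci of the near-identical pair, as do the shares of 78.8% and 89.2%, and with XLOC_007173 left out the means were 21.6 in xrn3-8 and 18.4 in Col-0. Without the near-identical pair the loci held 6.81 ± 1.10 counts per 100 in xrn3-8 and 7.34 ± 0.83 in Col-0, and without the top 5 they held 3.58 ± 0.48 and 3.64 ± 0.53. Without the pair or the top 5 the means differed by less than the spread between replicates. The sums, which the large loci dominate, thus did not separate the genotypes on this denominator. Counts over genes include those over XRN3, with 538823, 573638 and 706264 in xrn3-8 against 276, 790 and 350 in Col-0. They lower the xrn3-8 values here, so the overlap of the genotypes is shown for this denominator only. The same holds for the lower xrn3-8 means without the pair or the top 5, whose order may change with another denominator. Shares without XRN3 were not computed. Per 100 counts of the TMM-scaled library sizes, the means over the 750 loci were 37.5 in xrn3-8 and 28.7 in Col-0. The 164 higher loci, chosen by the test, held 0.494 ± 0.099 counts per 100 in xrn3-8 and 0.130 ± 0.020 in Col-0. The 51 lower loci held 0.186 ± 0.036 in xrn3-8 and 0.298 ± 0.041 in Col-0, so both classes were a small part of the small RNA.

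The 10 largest rises began at unequal Col-0 levels, with no counts at one locus and over 30 in every library at 2 others. XLOC_002149 had 199, 179 and 341 small RNA counts in xrn3-8, against 0, 0 and 0 in Col-0, at least 238-fold higher when the Col-0 group is set to the floor of 3 counts (adjusted p = 1.9e-06). Among the 750 loci it was the one with no Col-0 small RNA count. XLOC_005369 had 3955, 3586 and 4904 counts in xrn3-8, against 63, 37 and 47 in Col-0 (log2 fold change 6.40, SE 0.18, adjusted p = 4.0e-09). XLOC_003192 had 3902, 3408 and 6064 counts in xrn3-8, against 64, 59 and 60 in Col-0 (6.16, SE 0.20, adjusted p = 7.8e-09). The last 2 loci had similar counts but not near-identical ones, and together held 25.6% of the xrn3-8 counts of all 164 higher loci.

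Smaller loci rose by similar factors. XLOC_002802 had 431, 409 and 722 counts in xrn3-8, against 9, 7 and 10 in Col-0 (log2 fold change 5.86, SE 0.25), and XLOC_004161 had 637, 408 and 650 against 10, 11 and 9 (5.81, SE 0.27). XLOC_002082 had 138, 142 and 211 counts in xrn3-8, against 2, 1 and 6 in Col-0 (5.69, SE 0.36). XLOC_002470 had 102, 117 and 213 counts in xrn3-8, against 2, 1 and 4 in Col-0 (5.84, SE 0.40). These loci were chosen for groups that do not overlap, so the separation of the libraries is not a result. For the 3 others of the 10 largest rises, the Col-0 group held 1 to 3 counts. The ratio of scaled counts was 68.4 at XLOC_001463 (exact 95% interval 18.6 to 571), 64.8 at XLOC_000631 (21.8 to 317) and 73.4 at XLOC_004506 (12.8 to 2937), where the intervals cover counting error only. Single Col-0 libraries weighed on the size of these rises: without Col-0 replicate 2 the log2 fold change of XLOC_004506 was 7.62, and without Col-0 replicate 3 it was 6.47 at XLOC_002470, 6.72 at XLOC_000631 and 6.67 at XLOC_002082. All 10 had adjusted p of at most 0.00025. They were chosen among loci past the threshold on adjusted p, so passing the test is not a result either.

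The RNA of these raised loci was present at low level in xrn3-8 and at or near 0 in Col-0. XLOC_002149 had 27, 33 and 49 RNA-seq counts in xrn3-8, against 0, 1 and 5 in Col-0. XLOC_005369 had 16, 12 and 24 counts in xrn3-8, against 0, 2 and 2 in Col-0, too few for the RNA-seq filter. XLOC_003192 had 27, 21 and 21 counts in xrn3-8 and 0 in each Col-0 library, at least 19.5-fold higher. In xrn3-8 the last 2 loci thus had far more small RNA counts than RNA-seq counts, although the RNA-seq libraries were deeper. XLOC_001463 had more RNA, with 33, 99 and 45 counts in xrn3-8 against 2, 6 and 10 in Col-0, and less small RNA, with 40, 53 and 45 counts against 1, 1 and 0. Among these 10 loci the order by small RNA was therefore not the order by RNA.

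**Figure D3:**
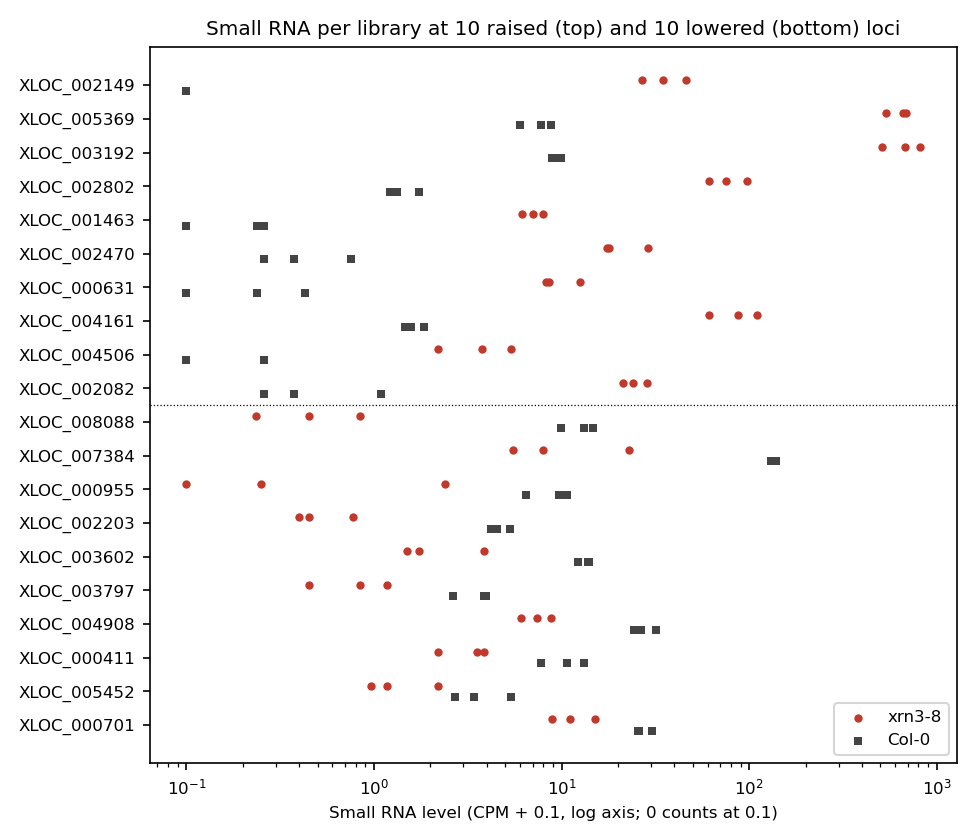
Small RNA level in CPM plus 0.1 on a log axis, 1 point per library, for the 10 largest rises above the dotted line and the 10 largest falls below it (red circles xrn3-8, dark squares Col-0). The loci were chosen for genotypes that do not overlap; at XLOC_000955 and XLOC_007384 the xrn3-8 points are spread over more than those of Col-0.

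Other raised loci had more Col-0 small RNA and smaller rises. Among the 164, 104 averaged fewer than 10 Col-0 small RNA counts per library, and the others more. XLOC_002540 had 2544, 1846 and 3401 small RNA counts in xrn3-8, against 812, 703 and 703 in Col-0 (log2 fold change 1.80), and XLOC_001380 had 1322, 1371 and 2549 against 244, 263 and 293 (2.66). XLOC_003784 had 1687, 1360 and 1926 counts in xrn3-8, against 225, 213 and 196 in Col-0 (2.97). At XLOC_008755 the change was smaller, with 2626, 2428 and 3855 counts in xrn3-8 against 2384, 1661 and 1794 in Col-0 (0.60). These 4 loci were named after their values were seen.

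At the most lowered loci, small RNA present in Col-0 was scarce in xrn3-8. The largest falls were likewise chosen past the threshold and without overlap, so neither property is a result. XLOC_008088 had 2, 5 and 1 small RNA counts in xrn3-8, against 72, 82 and 89 in Col-0 (log2 fold change -4.88, SE 0.40, adjusted p = 8.0e-06). XLOC_007384 had 31, 53 and 168 counts in xrn3-8, against 953, 839 and 848 in Col-0 (-3.46, SE 0.40, adjusted p = 8.0e-05). XLOC_000955 had 0, 1 and 17 counts in xrn3-8, against 70, 67 and 39 in Col-0 (-3.30, SE 0.65, adjusted p = 0.0025). In these last 2 loci xrn3-8 replicate 3 held more than the other mutant libraries together, and DESeq2 did not call XLOC_000955 (adjusted p = 0.083). Without xrn3-8 replicate 3 the log2 fold change was -4.33 at XLOC_007384 and -6.50 at XLOC_000955, and without xrn3-8 replicate 2 it was -5.68 at XLOC_008088.

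XLOC_002203 had 2, 2 and 5 counts in xrn3-8, against 30, 33 and 27 in Col-0 (log2 fold change -3.29, SE 0.39), and XLOC_003602 had 8, 11 and 28 against 102, 77 and 84 (-2.50, SE 0.31). Without xrn3-8 replicate 3, XLOC_003602 had -3.13. XLOC_004908 had 50, 40 and 54 counts in xrn3-8, against 232, 153 and 162 in Col-0 (-1.92, SE 0.18). XLOC_003797, XLOC_000411 and XLOC_000701 fell by 2.15, 1.73 and 1.24 on the log2 scale. XLOC_005452 fell by 1.43 (SE 0.42, adjusted p = 0.023), a call that was lost without Col-0 replicate 3 (adjusted p = 0.091) or xrn3-8 replicate 1 (adjusted p = 0.065). Among the other lowered loci, XLOC_000571 was one of the larger ones, with 677, 1064 and 1019 counts in xrn3-8 against 1433, 1400 and 1525 in Col-0 (-0.69, SE 0.14); it was named after its values were seen.

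RNA at the lowered loci was higher in xrn3-8. XLOC_008088 had 11, 12 and 25 RNA-seq counts in xrn3-8 and 0 in each Col-0 library, at least 13.6-fold higher. XLOC_007384 had 8, 12 and 13 counts in xrn3-8, against 0, 0 and 1 in Col-0, and XLOC_000955 had 18, 72 and 68 against 3, 1 and 1. XLOC_003602 had 30, 62 and 53 counts in xrn3-8, against 1, 0 and 0 in Col-0, a ratio of scaled counts of 123 (95% interval 21.7 to 4886). XLOC_004908 averaged 1.71 CPM in xrn3-8 and 0.0995 CPM in Col-0. In all 51 lowered loci the RNA-seq libraries of xrn3-8 lay above those of Col-0 without overlap. The xat table appears to hold loci picked for a rise in these RNA-seq libraries, so the direction of RNA is a property of that choice and not a result here.

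**Figure D4:**
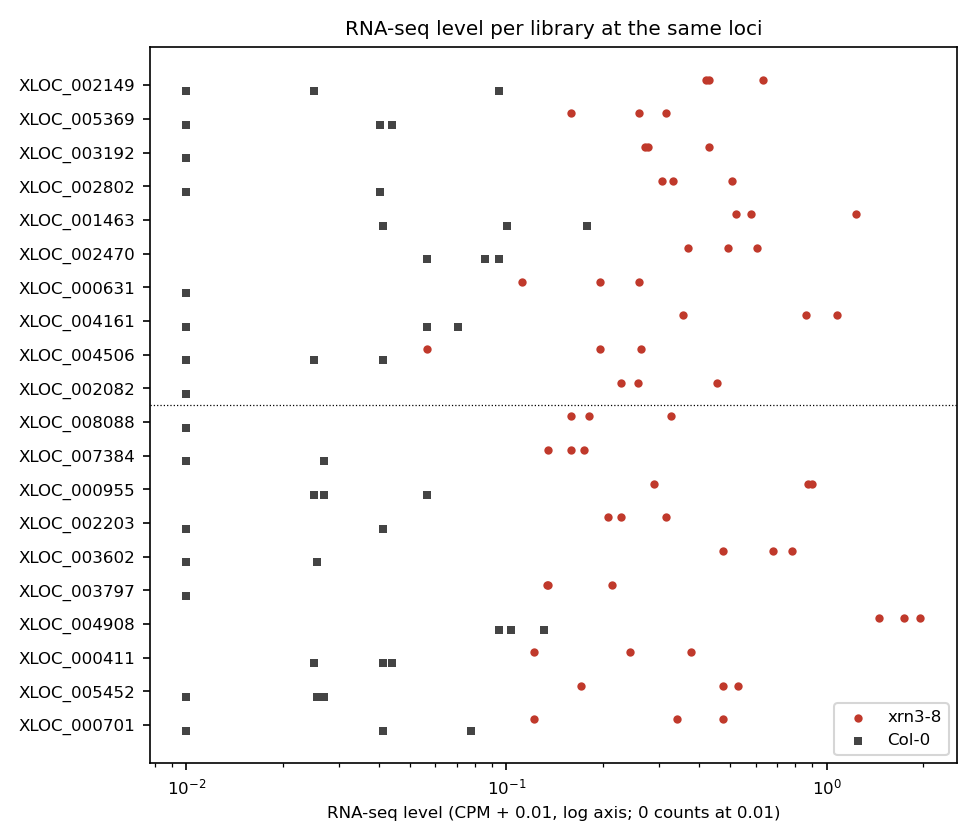
RNA-seq level in CPM plus 0.01 on a log axis, 1 point per library, for the same 20 loci in the same order (red circles xrn3-8, dark squares Col-0). RNA is higher in xrn3-8 at loci above and below the dotted line alike, mostly between 0.1 and 1 CPM, and several Col-0 points are at 0 counts.

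RNA of the 750 loci was scarce in both genotypes. The loci had a median of 94 RNA-seq counts over the 3 xrn3-8 libraries and 5 over the 3 Col-0 libraries, and a median level of 0.419 CPM in xrn3-8 and 0.0263 CPM in Col-0. Together they held 684, 592 and 788 RNA-seq counts per 1e+06 gene counts in xrn3-8, against 81.6, 86.5 and 86.7 in Col-0. At 152 loci no Col-0 library had an RNA-seq count. The genotypes stood apart with higher RNA in xrn3-8 at 747 of 750 loci, beside 57.3% of all 5329 assembled loci tested. The exceptions were XLOC_007834, XLOC_003455 and XLOC_005435. As the table appears to have been picked on this contrast, nothing is read from that difference.

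The filter for RNA-seq passed 552 of the 750 loci. All 552 were called higher, where 50.8% of all assembled loci tested were higher and 2.76% lower, and again the choice of the table sets this. Their median RNA log2 fold change was 3.55, with a range of 1.18 to 11.17, and 3.53 with the 68 loci without Col-0 counts set at their bound. The 1608 loci of the xat table under 60 small RNA counts that passed the filter had a median of 3.43, and all 5329 assembled loci 1.12. Over all rows, the median RNA level was 0.419 CPM in xrn3-8 for the 750 loci and 0.328 CPM for the 2455 xat loci under 60 counts. Loci with and without much small RNA thus had similar RNA medians, a difference that was not tested.

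Most of the 10 loci with the most RNA did not pass the test in small RNA. XLOC_007573 had 1451, 1500 and 1240 RNA-seq counts in xrn3-8, against 220, 280 and 188 in Col-0, and a small RNA log2 fold change of -0.0044 (SE 0.17). XLOC_004510 had 966, 1114 and 1455 RNA-seq counts in xrn3-8, against 6, 6 and 12 in Col-0, a ratio of scaled counts of 125, and a small RNA log2 fold change of 0.021 (SE 0.14). XLOC_002624 had 1042, 1402 and 1100 RNA-seq counts in xrn3-8, against 99, 75 and 41 in Col-0, and -0.16 (SE 0.12) in small RNA. XLOC_003506 had 988, 1029 and 1484 RNA-seq counts in xrn3-8, against 43, 67 and 51 in Col-0, and 0.23 (SE 0.10, adjusted p = 0.12) in small RNA, where its genotypes stood apart with 92.6, 95.2 and 101 CPM in xrn3-8 against 79.5, 82.8 and 84.6 CPM in Col-0. For all 4, a range of 2 standard errors around the small RNA change stayed within 1 on the log2 scale.

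Of the 10 loci with the highest RNA level, XLOC_002509 was the one whose small RNA passed the test. Its log2 fold change in small RNA was 0.91 (SE 0.17, adjusted p = 0.0019), with 412, 551 and 696 RNA-seq counts in xrn3-8 against 178, 212 and 158 in Col-0. XLOC_007572, XLOC_007173, XLOC_009132, XLOC_003637 and XLOC_007333 completed these 10 loci. Their small RNA log2 fold changes lay between -0.21 and 0.49.

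Across these loci, the 2 kinds of change had little common order. Every RNA log2 fold change was at least 1.18, as the table appears to have been picked so, which narrows the range. Of the 552 loci tested in RNA-seq, 68 had no Col-0 count, so their RNA change depends on the prior count of the fit. The 2 assays also differ in age and medium. Over the 542 loci tested in both assays, Spearman's rho of the small RNA and the RNA log2 fold change was -0.12 and Pearson's r -0.065. Over all 750 loci, rho of the mean small RNA level and the mean xrn3-8 RNA level was -0.0067. These values describe loci that share libraries and whose lengths are not known here, and loci are not independent replicates. The median RNA level in xrn3-8 was 0.475 CPM at the 164 loci with higher small RNA, 0.331 CPM at the 51 with lower small RNA and 0.415 CPM at the 525 that did not pass. In Col-0 the medians of the same classes were 0.0381, 0.0154 and 0.0256 CPM. The quartiles of the classes overlap, with 0.291 to 0.914 CPM in xrn3-8 for the higher class and 0.236 to 0.789 CPM for the loci that did not pass.

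**Figure D5:**
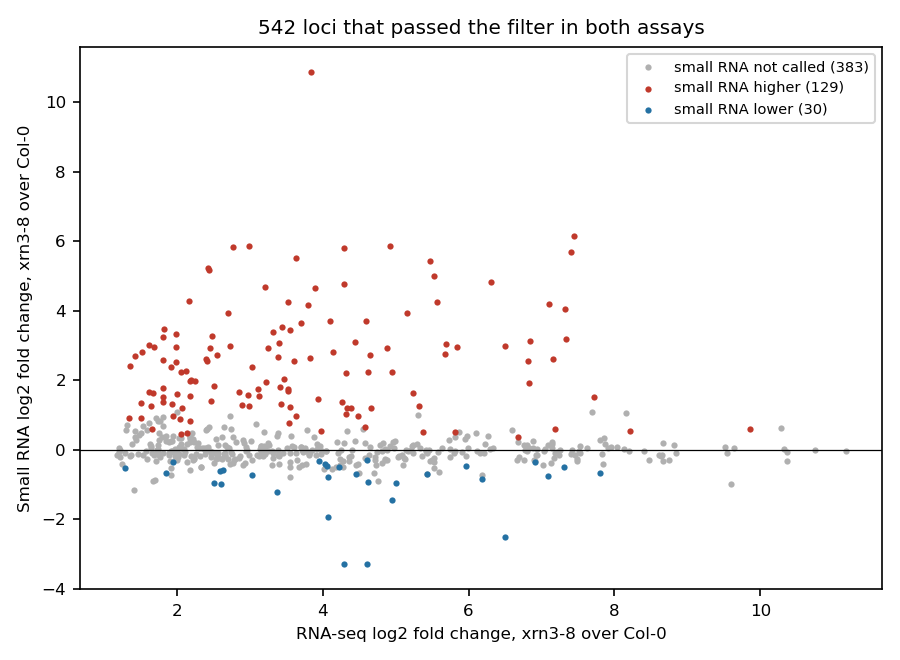
RNA-seq log2 fold change (horizontal) against small RNA log2 fold change (vertical), both xrn3-8 over Col-0, for the 542 loci that passed the filter in both assays; 129 were higher (red), 30 lower (blue) and 383 not called (grey) in small RNA. Every locus is right of 0, as the table appears to have been picked so, and loci called higher, called lower and not called in small RNA are found over most of the RNA range.

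Some loci had the same 6 small RNA counts as an annotated gene. This held for 14 of the 750 loci. An equal count in every library is a match of values and not an annotation. The largest was XLOC_007199, with 1460, 1349 and 1572 counts in xrn3-8 and 324, 256 and 270 in Col-0 (log2 fold change 2.37), the same as the protein-coding gene AT4G33290. That gene was listed at 0 RNA-seq counts in every library, while XLOC_007199 had 26, 6 and 30 RNA-seq counts in xrn3-8 and 3, 0 and 2 in Col-0. The labels do not say how RNA-seq reads over both a gene and a locus were assigned. XLOC_000379 and XLOC_001612 had the counts of the transfer RNA genes AT1G21800 and AT1G20420, and did not pass the test.

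The other matches were with genes of several kinds. XLOC_006488, with 45, 39 and 71 counts in xrn3-8 and 1, 1 and 3 in Col-0, matched AT4G34780. XLOC_007406, with 12, 20 and 31 counts in xrn3-8 and 3, 0 and 0 in Col-0, matched BHLH101, a transcription factor gene of the iron deficiency response. XLOC_004880, with 30, 31 and 22 counts in xrn3-8 and 11, 7 and 6 in Col-0, matched ATL4, of a family of RING-type ubiquitin ligases. Small RNA was higher at 8 of the 14 loci and did not pass at 6, beside 25.3% called higher over all tested loci of the table. Their totals ran from 66 to 5231 counts, and 49.4% of the tested loci with 60 to 119 counts were called higher, so nothing is read from this count. In RNA, 8 of the 14 matched genes were tested and 4 were higher in xrn3-8, beside 15.9% of all genes tested. These were AT5G19340 (log2 fold change 1.55, SE 0.17), the UDP-glycosyltransferase gene UGT85A5 (0.98, SE 0.16), the helix-loop-helix gene AIF1 (0.89, SE 0.17) and ATL4 (0.85, SE 0.25). Of these 4, ATL4 was the one matched to a locus with higher small RNA. The xat table appears to have been picked on RNA in these same libraries, so nothing is read from the count of 4 genes either.

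Consecutive identifiers were found among the raised loci, although nothing in the labels says that such numbers mean neighbours on the genome. Of the 164 higher loci, 29 were next in number to any of the 750 loci, 11 to another higher locus and 1 to a lower locus. Whether this exceeds the 22.2% of tested loci called higher was not tested. Among them, XLOC_004161 stood beside XLOC_004160, with 24, 24 and 39 counts in xrn3-8 and 1, 1 and 0 in Col-0. XLOC_002470 stood beside XLOC_002471, with 21, 23 and 32 counts in xrn3-8 and 1, 0 and 1 in Col-0. XLOC_004506 stood beside XLOC_004507, with 19, 11 and 36 counts in xrn3-8 and 0, 1 and 1 in Col-0. In these 3 pairs both loci were called higher, with no overlap between the genotypes.

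The 10 loci that failed the filter on low counts had 60 to 194 counts in all. XLOC_001051 was the largest, with 5, 12 and 164 counts in xrn3-8. The third mutant library alone carried it past the total of 60, and it had no test. Its Col-0 counts were 8, 2 and 3.

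Most of the listed genes of the small RNA pathways and around the XRN enzymes did not pass the test in RNA-seq. A list of 22 genes held chosen members of the DICER-LIKE, ARGONAUTE and RNA-dependent RNA polymerase families with SGS3, HEN1 and DRB4, the polymerase subunits NRPD1 and NRPE1, XRN2, XRN4 and FRY1, and left out XRN3 itself. In xrn3-8, 6 of the 21 genes tested rose and 2 fell, where 15.9% of all 20653 genes rose and 17.4% fell. The list's median log2 fold change was 0.13, beside 0.0043 over all genes. AGO2, an ARGONAUTE of antiviral defence, averaged 11.8 ± 2.19 CPM in xrn3-8 and 7.92 ± 0.95 CPM in Col-0 (log2 fold change 0.58, SE 0.14, adjusted p = 0.011). RDR2, the polymerase of the pathway that leads to DNA methylation, averaged 9.31 ± 0.43 CPM in xrn3-8 and 6.14 ± 0.70 CPM in Col-0 (0.60, SE 0.11). DCL3, which cuts the products of RDR2, rose by 0.35 (SE 0.11, adjusted p = 0.036). The others that rose were AGO1, the main ARGONAUTE of microRNAs (0.45, adjusted p = 0.00095), DCL2, a DICER-LIKE enzyme of antiviral defence (0.53, adjusted p = 0.0012), and NRPE1, the largest subunit of RNA polymerase V (0.46, adjusted p = 0.0037). NRPD1, the largest subunit of RNA polymerase IV, had 0.20 (adjusted p = 0.14) and AGO4, an ARGONAUTE of the DNA methylation pathway, had 0.044 (adjusted p = 0.68), and neither passed. The genes that fell were FRY1, a phosphatase whose substrate inhibits the XRN enzymes, and RDR1, an RNA-dependent RNA polymerase of antiviral defence. FRY1 averaged 22.6 ± 1.11 CPM in xrn3-8 and 35.6 ± 1.62 CPM in Col-0 (-0.65, SE 0.078, adjusted p = 0.00013), and RDR1 25.4 ± 0.64 and 30.6 ± 0.74 CPM (-0.27, SE 0.072, adjusted p = 0.016). RDR6, the polymerase that acts on aberrant and cleaved transcripts, had 0.13 (SE 0.093, adjusted p = 0.32), and DCL4, which works downstream of it, had 0.026 (SE 0.076, adjusted p = 0.82). Scaled by total counts alone, 11 genes of the list were higher and 1 lower. These genes were measured in 21-day seedlings and the small RNA in 14-day seedlings, so their values are given side by side without a comparison.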

How the data were processed

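The files hold raw counts per feature, deposited by the authors as 1 table per library. HISAT2, Bowtie, HTSeq, DESeq2 and bedtools are named, without versions, in the submitters' processing notes; they do not say how reads with several positions were counted. Rows that name no feature held 85.5% to 93.1% of the counts of the small RNA xat tables and 22.6% to 26.1% of those for RNA-seq, and were left out.

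Differences were tested with edgeR 4.0.16 (R 4.3.3; quasi-likelihood test, filterByExpr minimum count of 10, TMM scaling on the gene table of each assay), with Benjamini-Hochberg adjustment over all features tested and a threshold of 0.05; each standard error is the log2 fold change over the square root of F. DESeq2 1.42.0, other scalings and filters, a replicate block and leaving out each library were alternatives. The test was checked on simulated counts that gave all loci the same dispersion. That check therefore does not cover spread that differs between loci or libraries. Folds against 0 counts used a floor of 3 counts over the group; intervals and floors cover counting error only. Named loci are the 10 largest rises and 10 largest falls past the threshold without overlap, the 10 highest small RNA and 10 highest RNA levels, and the 4 on each side of the total of 60. The loci, lists and tests were chosen with earlier results of these data known.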

Additional observations from a re-analysis of the deposited data

How the results depend on the processing

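The median small RNA log2 fold change of the loci, 0.045, lay close to 0 and became -0.022 with DESeq2 size factors, -0.044 with total counts, -0.019 with scaling on the xat table, -0.016 with DESeq2 and -0.0057 for loci with at least 120 counts. There were 82 loci called higher among those with at least 120 counts. Without a filter, 482 loci of all xat rows were called higher. DESeq2 called 131 loci higher and 31 lower, and of all xat rows 234 higher and 32 lower. Of the 215 loci called, 173 to 194 kept their call when 1 library was left out and 159 with DESeq2. The median RNA log2 fold change was 3.84 without a filter, 3.99 with DESeq2, 3.78 for loci with at least 120 counts and 3.51 to 3.89 with 1 library left out. The share per 100 gene counts was 21.6 in xrn3-8 and 18.4 in Col-0 without the locus with most counts; without the near-identical pair it was 6.81 and 7.34, and without the top 5 it was 3.58 and 3.64, both chosen after seeing the data. With total counts, 11 genes of the list of small RNA and XRN genes were higher and 1 lower, and 1 to 2 were lower with 1 library left out (1 without Col-0 replicate 2). Among the 30 loci followed one by one, the signs that turned were at XLOC_003076, XLOC_006598 and XLOC_003222, none of them called. XLOC_003076 had -0.022, -0.066, -0.017 and -0.022 with DESeq2 size factors, total counts, xat scaling and DESeq2, and -0.11 without Col-0 replicate 3. XLOC_006598 had -0.077, -0.12, -0.055 and -0.077 under the same 4, -0.012 with XRN3 left out of scaling, -0.16 without Col-0 replicate 1 and -0.42 without xrn3-8 replicate 1. With 1 library left out in turn, XLOC_003076 ranged from -0.11 to 0.12, XLOC_006598 from -0.42 to 0.26 and XLOC_003222 from -0.33 to 0.045, the last without xrn3-8 replicate 2. The cause of these shifts was not tested. With the replicate block, 146 loci were higher and 45 lower, and XLOC_006598 had -0.092. Same-numbered libraries had correlations of -0.36, 0.050 and -0.025 in small RNA, taken on deviations from the mean of each genotype. No small RNA library correlated best with the library of its own number. With 3 libraries per genotype, such values cannot decide whether the numbers pair the samples. Low counts limit the loci just above 60, where a 2-fold change often stays within the error.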
